A study of Homo sapiens with 96 samples.

Results

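The transcripts of 8 enzymes that make or break down eicosanoids were followed through keratinocytes whose epidermal growth factor receptor (EGFR) was blocked or depleted. The enzymes were PLA2G4A, PTGS1, PTGS2, PTGES, HPGD, CYP4F3, ALOX12B and ALOX15B. They were chosen by gene name, with earlier results of these data known, and are 8 of the 19775 genes that had a named probe set. Each was read through its brightest probe set on average over the HaCaT construct arrays. HaCaT is an immortalized human keratinocyte line. Its derivatives carried a pLenti-CMV lentiviral construct selected with puromycin, either for EGFR (HaCaT-EGFR), for mutant HRAS (HaCaT-HRAS) or for mutant PIK3CA (HaCaT-PIK3CA), and HaCaT-Mock was the control line. Each line was given 10 nM afatinib, 100 nM gefitinib or 100 nM cetuximab, together 9 arrays per line and 8 in HaCaT-PIK3CA, against PBS, with 3 arrays per line and 2 in HaCaT-EGFR. Each line also received siRNA against EGFR (siEGFR, 3 arrays) against scramble siRNA (3 arrays), or scramble siRNA with an inhibitor (1 array per inhibitor and line) against scramble siRNA with PBS (7 arrays in all, 1 of them HaCaT-Mock). The untreated carcinoma lines SCC1 (2 arrays), SCC25 (2) and FaDu (1) were set against HaCaT-Mock under PBS, with 1 array of parental HaCaT as another reference. The construct is driven by the viral CMV promoter in each line. The sources used here do not state whether arrays of 1 group came from separate cultures, so p-values measure only the spread between these arrays.

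The median log2 intensity of an array was between 5.08 and 5.18. The 5 keratinocyte markers measured (KRT5, KRT14, DSP, CDH1 and SFN) were at or above 9.70 on every HaCaT construct array, and KRT14 read 7.4 to 13.76 on the carcinoma arrays. Of 8 markers of other cell types COL1A1 was highest (6.83 to 7.57 on the construct arrays), and the leukocyte marker PTPRC did not exceed 4.27. siEGFR lowered EGFR itself by 1.92 (SE 0.0479) on the log2 scale over the 4 lines. EGR1, a further check gene, fell over the 4 lines by 2.45 (SE 0.0694) under the inhibitors and by 0.72 (SE 0.0801) with siEGFR. In HaCaT-EGFR its siEGFR change did not pass (-0.36, limma adjusted p = 0.17). EGR1 also fell by 1.09 (SE 0.102) with scramble siRNA and PBS against PBS alone. The chosen EGFR probe set read no higher in HaCaT-EGFR than in HaCaT-Mock under PBS (log2 difference -0.0006, SE 0.109) and did not pass the test. The study itself reported more EGFR mRNA in HaCaT-EGFR than in HaCaT-Mock by RT-PCR, and increased phospho-EGFR on Western blots. Whether this probe set reads the construct's transcript was not tested. A few arrays went against their labels by DUSP6, a MAPK feedback phosphatase that fell by 2.24 (SE 0.0916) under the inhibitors over the 4 lines. The only HaCaT-Mock array with scramble siRNA and PBS had a DUSP6 value of 8.13, against 9.82 to 10.07 on the HaCaT-Mock scramble arrays without PBS. HaCaT-PIK3CA afatinib replicate 1 had a DUSP6 value of 9.57, against 7.73 and 8.16 on the other two arrays of its group. HaCaT-HRAS gefitinib replicate 1 had the largest ACTB 3′ minus 5′ difference of all arrays (3.5 on the log2 scale, with 1.34 on the middle array). The array batches, given by a letter (J, E, M or P) in the sample titles, differed for 6 of the 8 enzymes at an adjusted p under 0.05 and for 67.5% of all genes, so the batch was a term of every fit.

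Eicosanoids are signalling lipids made from arachidonic acid. Cytosolic phospholipase A2 (PLA2G4A) releases the acid from membranes, the cyclooxygenases PTGS1 and PTGS2 turn it into prostaglandin H2, and PTGES turns that into prostaglandin E2, the main prostaglandin of keratinocytes. HPGD inactivates prostaglandins by oxidation, CYP4F3 hydroxylates and so inactivates leukotriene B4, and the lipoxygenases ALOX12B and ALOX15B add oxygen to fatty acids, in the case of ALOX12B as a step in building the water barrier of the epidermis.

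The sequences just upstream of the transcription start are shown for CYP4F3 and HPGD, which rose together under the inhibitors, for PLA2G4A, which fell, and for PTGS2, which was higher in the HRAS line and in the carcinoma lines. Each run is the 250 bases before a RefSeq start on GRCh38.p14, read 5′ to 3′ on the strand of the gene. For HPGD, which has more than 1 listed start, the downstream one is shown. Capitals mark matches on either strand to the motifs of AP-1 (TGANTCA), AP-2 (GCCNNNGGC), ETS (CCGGAAG), FOXO (GTAAACA), Sp1 (the GC box GGGCGG), CREB (the element TGACGTCA) or the basal promoter (TATAAA).
CYP4F3 (chr19:15641062-15641311, + strand): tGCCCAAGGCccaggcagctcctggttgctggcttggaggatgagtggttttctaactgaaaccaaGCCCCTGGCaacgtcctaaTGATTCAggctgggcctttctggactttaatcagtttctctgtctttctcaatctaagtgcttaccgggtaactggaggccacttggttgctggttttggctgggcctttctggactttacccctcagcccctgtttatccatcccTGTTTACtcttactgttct
HPGD (chr4:174522489-174522738, - strand): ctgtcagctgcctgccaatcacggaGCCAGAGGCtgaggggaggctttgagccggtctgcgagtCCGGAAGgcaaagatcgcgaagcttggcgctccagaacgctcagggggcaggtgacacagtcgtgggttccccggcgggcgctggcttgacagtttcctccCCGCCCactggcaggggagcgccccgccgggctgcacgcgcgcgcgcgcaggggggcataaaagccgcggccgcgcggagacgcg
PLA2G4A (chr1:186828699-186828948, + strand): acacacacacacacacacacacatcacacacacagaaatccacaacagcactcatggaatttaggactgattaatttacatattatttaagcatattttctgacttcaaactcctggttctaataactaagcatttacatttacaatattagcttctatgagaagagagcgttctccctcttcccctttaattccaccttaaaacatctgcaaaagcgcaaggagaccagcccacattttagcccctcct
PTGS2 (chr1:186680424-186680673, - strand): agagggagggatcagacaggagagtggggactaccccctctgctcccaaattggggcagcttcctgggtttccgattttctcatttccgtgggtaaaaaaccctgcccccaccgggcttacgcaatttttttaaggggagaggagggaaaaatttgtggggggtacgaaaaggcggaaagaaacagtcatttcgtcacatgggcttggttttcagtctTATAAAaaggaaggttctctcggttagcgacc

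The CYP4F3 window held 2 AP-2 matches, 1 AP-1 match and 1 FOXO match. The HPGD window held 1 AP-2, 1 ETS and 1 GC box match, and the PTGS2 window held a match to TATAAA whose first base lies 32 bases before the start. The window of the other HPGD start, at 174522894 to 174523143 on the same chromosome, and the PLA2G4A window held none of these letter strings. Of 35116 promoter windows of the same length, 19.8% held the AP-2 string, 6.57% AP-1, 2.98% FOXO, 8.52% ETS, 42.6% the GC box, 10.7% the basal promoter string and 1.65% the CREB string. These matches describe letters, and no binding was measured.

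In the HaCaT construct arrays PTGES had the highest mean of the 8 enzymes (7.79 on the log2 scale), above 68.9% of all genes. PTGS1 averaged 6.87, CYP4F3 6.18 and PLA2G4A 5.64. PTGS2 averaged 3.85, with only 10.4% of genes below it, and HPGD, ALOX12B and ALOX15B averaged 4.62, 4.67 and 4.81, above 26.1%, 27.1% and 29.7% of genes. On the same arrays the lowest markers of other cell types were PTPRC and MLANA, of leukocytes and melanocytes, at 3.37 to 4.27 and 3.55 to 4.33. Others read higher, such as COL1A2 (3.94 to 5.20), CD3E (4.81 to 5.74), PMEL (5.31 to 6.21) and COL1A1 (6.83 to 7.57). The PTGS2, HPGD and CYP4F3 values of several groups lay in the range of PTPRC and MLANA. ALOX12B, ALOX15B, much of PLA2G4A and CYP4F3 under PBS without siRNA did not exceed the highest PMEL value. How much of such values is background was not tested, so their log2 changes are given without a fold. These are intensities of different probe sets, so the order among enzymes is a description of the arrays and not of transcript numbers. CYP4F3 had the widest range over the 89 arrays (3.70 to 9.02) and ALOX15B the narrowest (4.38 to 5.15). In cell lines measured in bulk, fewer cells expressing a gene and less RNA per cell cannot be told apart.

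**Figure D1:**
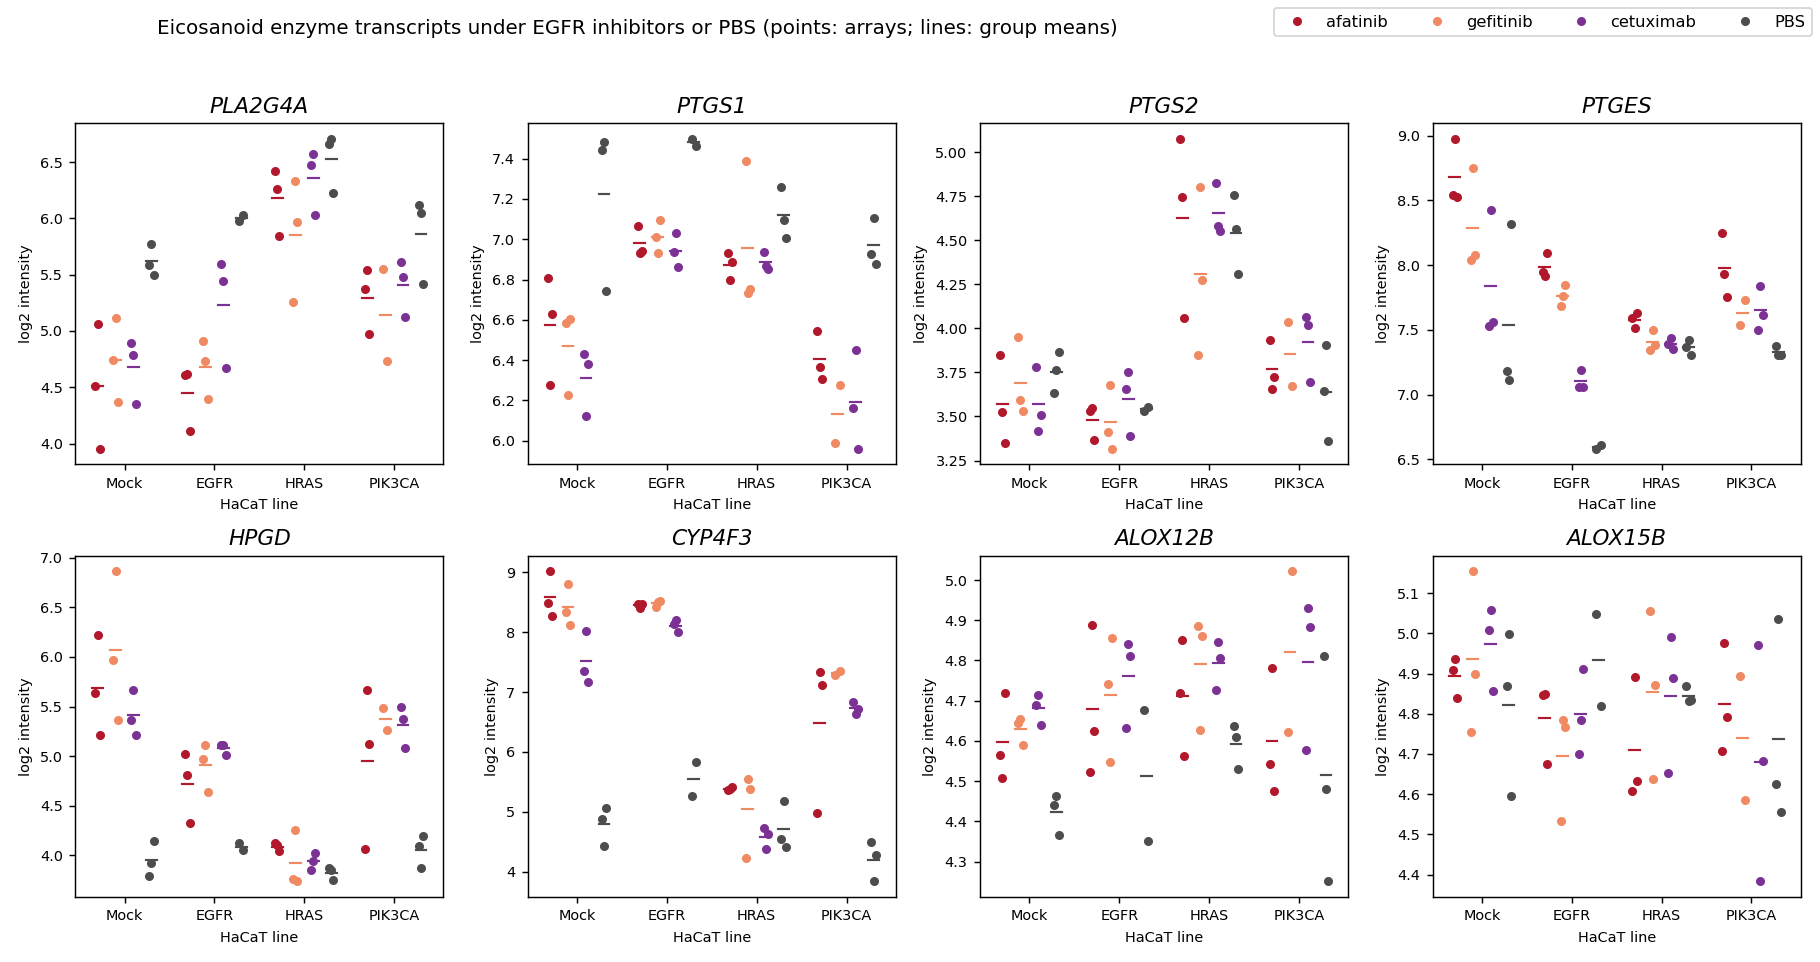
The log2 intensity of each enzyme on every array of the 4 HaCaT lines under afatinib, gefitinib, cetuximab or PBS, with points for arrays and short lines for group means. CYP4F3 on HaCaT-Mock arrays sits between 7.17 and 9.02 under the inhibitors, all above the PBS arrays, while in HaCaT-HRAS the inhibitor and PBS arrays overlap.

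The first comparison asked how the enzymes responded when EGFR was inhibited in each genetic background. In HaCaT-Mock, HaCaT-EGFR and HaCaT-PIK3CA the same 5 of 8 enzymes changed, with PTGES, HPGD and CYP4F3 higher and PLA2G4A and PTGS1 lower under the inhibitors than under PBS. All genes together gave 28.7% called in HaCaT-Mock, 26.4% in HaCaT-EGFR and 20.3% in HaCaT-PIK3CA (limma, Benjamini-Hochberg adjusted p under 0.05 over 19775 genes). The enzymes were chosen with earlier results of these data known. The shares of all genes, here and below, thus give the scale of each comparison and do not test the set. In HaCaT-HRAS only PLA2G4A, 1 of 8, passed, against 6.01% of all genes. The median change over the 8 enzymes was 0.17 (log2) in HaCaT-Mock, 0.12 in the EGFR line, 0.04 in the HRAS line and 0.23 in the PIK3CA line, and over all genes it was within 0.02 of 0 in each line.

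PLA2G4A, the enzyme that frees arachidonic acid, had log2 values between 3.96 and 5.11 (median 4.74) on the 9 HaCaT-Mock inhibitor arrays, against 5.497, 5.59 and 5.77 under PBS. All 9 inhibitor arrays were below all PBS arrays, and the same held for the 9 HaCaT-EGFR inhibitor arrays. PLA2G4A fell by 0.80 (SE 0.123, adjusted p = 5.5e-07) in HaCaT-Mock, fell by 1.04 (SE 0.144, adjusted p = 6.9e-08) in HaCaT-EGFR and fell by 0.55 (SE 0.125, adjusted p = 0.00063) in HaCaT-PIK3CA, where 4 of 8 inhibitor arrays lay below the lowest PBS array and the call was lost without the batch term (adjusted p = 0.11). In HaCaT-HRAS it fell by 0.40 (SE 0.122, adjusted p = 0.036), with values between 5.26 and 6.57 (median 6.26) under the inhibitors, against 6.23, 6.66 and 6.71 under PBS. Without HaCaT-HRAS gefitinib replicates 1 and 2 and HaCaT-PIK3CA afatinib replicate 1 the change was -0.23 (adjusted p = 0.12). The call was also lost without HaCaT-HRAS PBS replicate 1, 2 or 3 (adjusted p = 0.095, 0.12 and 0.22), afatinib replicate 2 (0.057) or cetuximab replicate 1 (0.058).

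PTGS1, the constitutive cyclooxygenase, was lower under the inhibitors. In HaCaT-PIK3CA the 8 inhibitor arrays lay between 5.96 and 6.55 (median 6.29), against 6.88, 6.93 and 7.10 under PBS, with no overlap. In HaCaT-EGFR all 9 inhibitor arrays (6.86 to 7.10) were also below the PBS arrays (7.46 and 7.50). In HaCaT-Mock the inhibitor arrays lay between 6.12 and 6.81 (median 6.43), against 6.75, 7.44 and 7.48 under PBS, and the groups overlapped at 1 array, the PBS array of batch E. The change was -0.72 (SE 0.0959, adjusted p = 4.7e-08) in HaCaT-PIK3CA, -0.47 (SE 0.111, adjusted p = 0.00076) in HaCaT-EGFR and -0.74 (SE 0.0948, adjusted p = 7.7e-09) in HaCaT-Mock. In HaCaT-HRAS it was -0.21 (SE 0.0940, adjusted p = 0.19), and 8 of 9 inhibitor arrays lay below the PBS arrays. The ninth was gefitinib replicate 1 (7.39), the array with the large ACTB difference. The size depended on the probe set. With the PTGS1 set that the rule of the study picks, the HaCaT-HRAS change was -0.46 (SE 0.101, adjusted p = 0.0023) and passed. Over the 4 lines the chosen PTGS1 probe set fell by 0.53, the other 3 gave -0.68, -0.27 and -0.13, and the chosen set carries the suffix that the manufacturer gives to sets that may bind other transcripts.

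PTGS2, the inducible cyclooxygenase, did not pass the test under the inhibitors in any line. Its changes were -0.06 (95% interval -0.30 to 0.18) in HaCaT-Mock, 0.06 (-0.23 to 0.34) in the EGFR line, -0.01 (-0.26 to 0.23) in the HRAS line and 0.23 (-0.02 to 0.47) in the PIK3CA line. What set the arrays apart was the line, since the HaCaT-HRAS arrays lay between 3.85 and 5.08 (median 4.58) under the inhibitors, with PBS arrays at 4.31, 4.56 and 4.76.

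PTGES, which makes prostaglandin E2, had its largest rise with the chosen probe set in HaCaT-EGFR. There the 9 inhibitor arrays lay between 7.06 and 8.09 (median 7.76), against 6.58 and 6.61 under PBS, a rise of 1.03 (SE 0.117, adjusted p = 5e-10). In HaCaT-Mock it rose by 0.74 (SE 0.1, adjusted p = 2.7e-08), with 7.53 to 8.98 (median 8.42) under the inhibitors, against 7.12, 7.18 and 8.32 under PBS. The high HaCaT-Mock PBS array was the one from batch E, and within batches the difference was 0.89 in batch J and 0.40 in batch E. In HaCaT-PIK3CA the rise was 0.42 (SE 0.102, adjusted p = 0.0012), with all 8 inhibitor arrays above the PBS arrays. In a fit of the compared groups alone the HaCaT-PIK3CA rise was 0.43 (adjusted p = 0.052). In HaCaT-HRAS the change was 0.10 (SE 0.0995, adjusted p = 0.71). The size and the order of the lines depended on the probe set. The second PTGES probe set gave 0.39 (SE 0.101) in HaCaT-EGFR and 0.40 (SE 0.0863) in HaCaT-Mock. It gave 0.31 (SE 0.0873) in HaCaT-PIK3CA and -0.15 (SE 0.0856) in HaCaT-HRAS.

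HPGD, the prostaglandin-inactivating dehydrogenase, rose by 1.82 (SE 0.186, adjusted p = 1.4e-11) in HaCaT-Mock. Its values there were between 5.21 and 6.86 (median 5.63) under the inhibitors, against 3.79, 3.92 and 4.14 under PBS, with no overlap. In HaCaT-PIK3CA it rose by 1.17 (SE 0.188), with 7 of 8 inhibitor arrays above the PBS arrays. The exception at 4.06 was HaCaT-PIK3CA afatinib replicate 1, the array whose DUSP6 also lay near the PBS level. In HaCaT-EGFR the rise was 0.86 (SE 0.218, adjusted p = 0.0016) with all 9 inhibitor arrays above the PBS arrays, and with the HPGD probe set that the rule of the study picks it was 0.58 (adjusted p = 0.063). In HaCaT-HRAS the change was 0.16 (SE 0.184, adjusted p = 0.75). All 4 HPGD probe sets were higher under the inhibitors over the 4 lines, by 1.00, 0.89, 0.66 and 0.39, although the chosen one carries the same suffix as that of PTGS1.

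CYP4F3, the leukotriene B4 hydroxylase, had the largest change of the 8 enzymes in HaCaT-Mock, HaCaT-EGFR and HaCaT-PIK3CA. In HaCaT-Mock it read 7.17 to 9.02 (median 8.28) under the inhibitors, against 4.42, 4.88 and 5.05 under PBS. In HaCaT-EGFR it read 8.0 to 8.52 (median 8.43), against 5.26 and 5.84 under PBS. In HaCaT-PIK3CA it read 4.98 to 7.36 (median 6.97), against 3.84, 4.27 and 4.49 under PBS. No inhibitor array of these 3 lines fell into the range of its PBS arrays. The log2 rise was 3.38 (SE 0.235, adjusted p = 4.9e-17) in HaCaT-Mock, 2.79 (SE 0.275, adjusted p = 9.5e-12) in HaCaT-EGFR and 2.64 (SE 0.238, adjusted p = 1.6e-12) in HaCaT-PIK3CA. The lowest HaCaT-PIK3CA value again belonged to afatinib replicate 1. In HaCaT-HRAS CYP4F3 read 4.23 to 5.55 (median 5.36) under the inhibitors, against 4.40, 4.54 and 5.18 under PBS, a change of 0.30 (SE 0.233, adjusted p = 0.56). CYP4F3 and CYP4F2 are closely related paralogs, and how far the probe set separates them was not tested.

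ALOX12B and ALOX15B, the epidermal lipoxygenases, moved little. ALOX12B passed in no single line in the main fit, with changes between 0.17 and 0.22, although in HaCaT-Mock all 9 inhibitor arrays (4.51 to 4.72) lay above the PBS arrays (4.37 to 4.46). In a fit of the compared groups alone it passed in HaCaT-Mock (0.21, adjusted p = 0.016). With array weights it passed in HaCaT-PIK3CA (0.28, adjusted p = 0.031). Over the 4 lines it rose by 0.20 (SE 0.0539, adjusted p = 0.0021). On batch J arrays alone that change was 0.14 (adjusted p = 0.11). ALOX15B had changes between -0.15 and 0.14 in the 4 lines and -0.01 (SE 0.0560) over them.

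**Figure D2:**
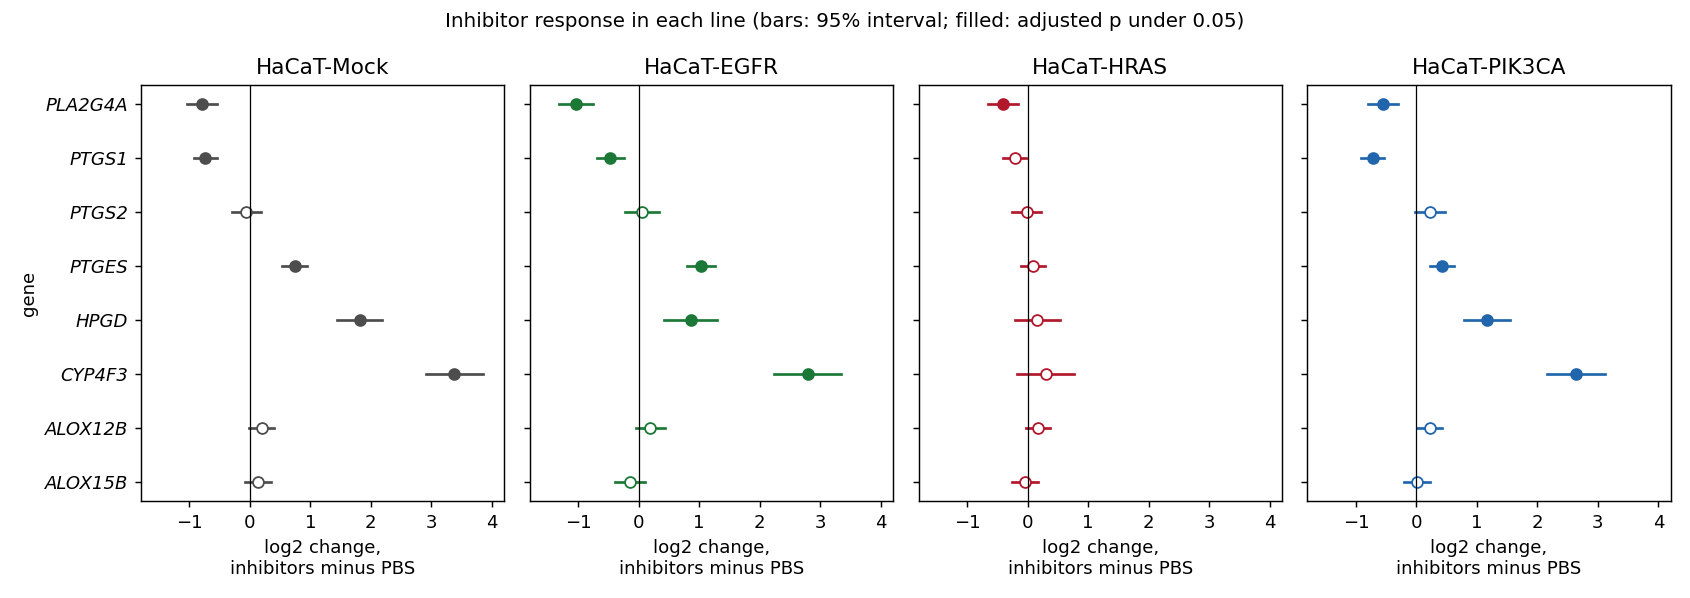
Log2 change of each enzyme, inhibitors minus PBS, in each line, with 95% intervals as bars and filled points where the adjusted p was under 0.05. CYP4F3 stands at 3.38 in HaCaT-Mock, 2.79 in HaCaT-EGFR and 2.64 in HaCaT-PIK3CA but at 0.30 in HaCaT-HRAS.

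Whether the inhibitor response of a construct line differed from that of HaCaT-Mock was tested as an interaction. In HaCaT-HRAS it differed for 4 of the 8 enzymes, against 9.53% of all genes. The difference of responses was -3.08 (SE 0.331, adjusted p = 1e-09) for CYP4F3, -1.66 (SE 0.262, adjusted p = 8.5e-06) for HPGD, -0.64 (SE 0.141, adjusted p = 0.0012) for PTGES and 0.52 (SE 0.133, adjusted p = 0.0063) for PTGS1. For PLA2G4A it was 0.39 (SE 0.173, adjusted p = 0.17), and it passed without the 3 arrays named for PLA2G4A above (0.55, adjusted p = 0.00092) and with array weights (0.52, adjusted p = 0.0015). The PTGS1 difference was lost without HaCaT-Mock PBS replicate 2 (0.44, adjusted p = 0.051) and the PTGES difference without the batch term (adjusted p = 0.067). None of the 8 enzymes passed for HaCaT-EGFR (limma, 0.0708% of all genes) or for HaCaT-PIK3CA (0.142%), with unadjusted p under 0.05 for 1 and 3 of them. The HPGD response differed by -0.96 (SE 0.284, adjusted p = 0.29) between HaCaT-EGFR and HaCaT-Mock, and this difference passed without the same 3 arrays (adjusted p = 0.04), with array weights (adjusted p = 0.008) and in the compared groups only (adjusted p = 0.019).

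Averaged over the 4 lines, the inhibitors together changed 6 of the 8 enzymes, against 39.2% of all genes. Afatinib changed 5 (37.1% of all genes), gefitinib 6 (37.5%) and cetuximab 6 (28.8%), all against the same PBS arrays, with ALOX12B as the additional gene. CYP4F3 rose by 2.41 (SE 0.148) under afatinib, 2.50 (SE 0.153) under gefitinib and 1.92 (SE 0.148) under cetuximab. PTGES rose by 0.85 (SE 0.0631), 0.57 (SE 0.0651) and 0.29 (SE 0.0631) in the same order. PLA2G4A changed by -0.81 (SE 0.0775), -0.79 (SE 0.0799) and -0.49 (SE 0.0775). HPGD and PTGS1 were also called under each inhibitor, with HPGD up by 0.91 to 1.12 and PTGS1 changed by -0.60 to -0.47. Afatinib was used at 10 nM and the others at 100 nM, so no inhibitor was tested against another.

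Depletion of EGFR by siRNA was the next comparison. CYP4F3 rose in each line and no array of a siEGFR group fell into the range of its scramble group. It read 5.55 to 5.93 under siEGFR in HaCaT-Mock, against 3.77 to 4.10 under scramble siRNA, and 7.56 to 7.83 in HaCaT-EGFR, against 5.73 to 6.23. In HaCaT-HRAS it read 4.54 to 5.14 under siEGFR, against 3.71 to 3.72, and in HaCaT-PIK3CA 5.17 to 5.58, against 3.70 to 3.94. The rises were 1.73 (SE 0.285, adjusted p = 9.5e-06) in HaCaT-Mock, 1.73 (SE 0.285, adjusted p = 1.3e-05) in the EGFR line, 1.06 (SE 0.285, adjusted p = 0.012) in the HRAS line and 1.57 (SE 0.285, adjusted p = 5.1e-05) in the PIK3CA line. The HaCaT-HRAS call rested on siEGFR replicate 2, without which the change was 0.88 (adjusted p = 0.12), and it was lost without the batch term (adjusted p = 0.059) and on batch J arrays alone (adjusted p = 0.2).

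With siEGFR, 2 of 8 enzymes were called in HaCaT-Mock (CYP4F3 and PLA2G4A, against 10.8% of all genes), and CYP4F3 alone, 1 of 8, in HaCaT-EGFR (9.46%), HaCaT-HRAS (6.29%) and HaCaT-PIK3CA (11.6%). Over the 4 lines 3 of 8 were called, against 28.4% of all genes. These were CYP4F3 (1.53, SE 0.143, adjusted p = 5e-13), PLA2G4A, which rose by 0.25 (SE 0.0748, adjusted p = 0.0078), and PTGES, which fell by 0.26 (SE 0.0609, adjusted p = 0.00045). PTGES on all 3 siEGFR arrays lay below all 3 scramble arrays in each of the 4 lines, for example 7.14 to 7.44 in HaCaT-Mock, against 7.58 to 7.71. PLA2G4A read 5.48 to 6.01 under siEGFR in HaCaT-Mock, against 4.91 to 5.52 under scramble siRNA, and its arrays overlapped in every line. The HaCaT-Mock call was lost without siEGFR replicate 2 or 3 or scramble replicate 2 or 3. Its call over the 4 lines was lost without the batch term (0.25, SE 0.138, adjusted p = 0.25) and on batch J arrays alone (0.25, adjusted p = 0.057).

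Set beside the inhibitors over the 4 lines, siEGFR gave PLA2G4A 0.25 where the inhibitors gave -0.70, and PTGES -0.26 where the inhibitors gave 0.57. HPGD changed by 0.18 (SE 0.113, adjusted p = 0.26) with siEGFR and rose by 1.00 (SE 0.0978) with the inhibitors, and PTGS1 changed by 0.08 (SE 0.0576, adjusted p = 0.32) with siEGFR and by -0.53 (SE 0.0498) with the inhibitors. CYP4F3 rose in both averages. In HaCaT-HRAS its change was 0.30 with the inhibitors (limma adjusted p = 0.56) and 1.06 with siEGFR (0.012). Its array means there were 4.78 under siEGFR, 3.72 under scramble siRNA, in the range of PTPRC, and 4.71 under PBS. The scramble mean was also below the PBS mean in HaCaT-Mock (3.95 and 4.79) and in HaCaT-PIK3CA. In HaCaT-EGFR it was above (5.94 and 5.55). Scramble siRNA alone was not tested against PBS. The siRNA and inhibitor comparisons used different arrays as controls, and the difference between them was not tested.

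**Figure D3:**
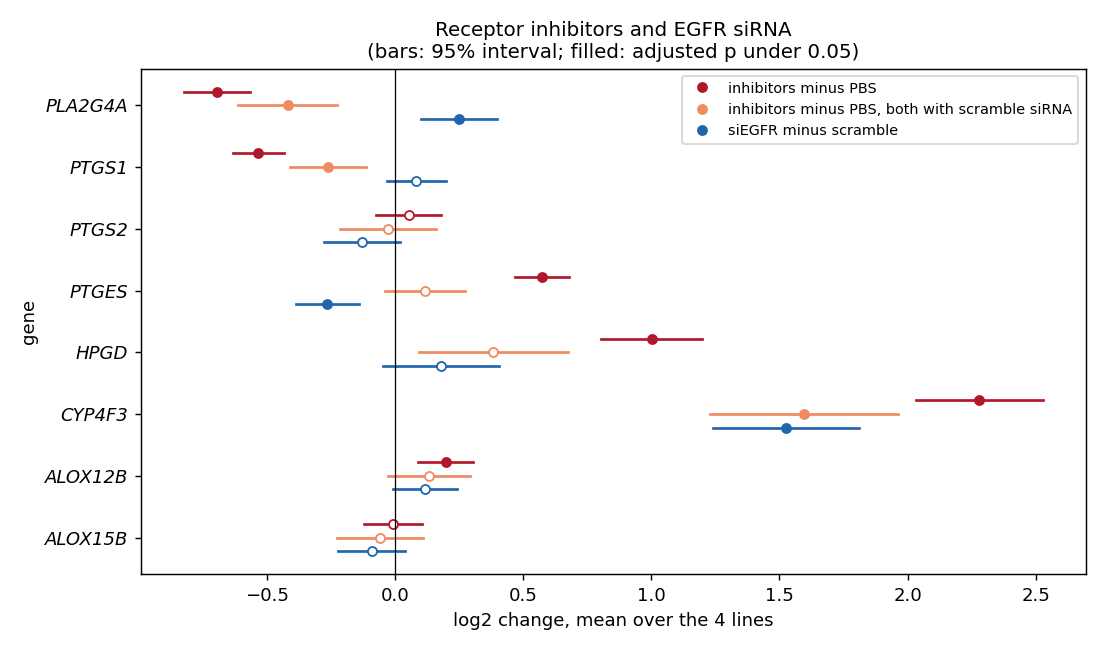
Log2 change of each enzyme averaged over the 4 lines, for inhibitors minus PBS, for the same difference on arrays with scramble siRNA, and for siEGFR minus scramble siRNA, with 95% intervals as bars and filled points where the adjusted p was under 0.05. PLA2G4A stands at -0.70 under the inhibitors and at 0.25 under siEGFR, and CYP4F3 lies to the right of 0 in each.

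When the cells also carried scramble siRNA, the inhibitors changed 3 of 8 enzymes, against 19.3% of all genes. CYP4F3 rose by 1.60 (SE 0.183, adjusted p = 1.5e-09), PLA2G4A fell by 0.42 (SE 0.0959) and PTGS1 fell by 0.26 (SE 0.0738). The PTGS1 call was lost without replicate 2 of scramble siRNA with PBS in HaCaT-HRAS (-0.19, adjusted p = 0.11) or in HaCaT-PIK3CA (-0.17, adjusted p = 0.13), and the PLA2G4A call without the batch term (-0.41, adjusted p = 0.1). Over all lines CYP4F3 read 4.83 to 8.73 (median 7.93) on the 12 arrays with an inhibitor and scramble siRNA, against 4.01 to 7.41 (median 4.92) on the 7 with PBS and scramble siRNA. The highest of these 7 was the HaCaT-Mock array whose DUSP6 was low. Without it and HaCaT-PIK3CA afatinib replicate 1, over the other 3 lines, HPGD (0.42, adjusted p = 0.014) and ALOX12B (0.31, adjusted p = 0.0052) were called as well, 5 of 8 in all.

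Scramble siRNA with PBS was also compared with PBS alone. In this comparison 4 of 8 enzymes were called, against 5.92% of all genes. PTGES was up by 0.75 (SE 0.0777), CYP4F3 by 0.70 (SE 0.182) and HPGD by 0.60 (SE 0.144), while PTGS1 fell by 0.33 (SE 0.0734). Without replicate 1 of scramble siRNA with PBS in HaCaT-HRAS the calls of CYP4F3, HPGD and PTGS1 were lost (adjusted p = 0.06, 0.077 and 0.051), those of CYP4F3 and HPGD also without the same replicate of HaCaT-EGFR (0.083 and 0.074) and that of PTGS1 without the same replicate of HaCaT-PIK3CA (0.066). The HaCaT-Mock array of this set read 7.41 for CYP4F3, 5.96 for HPGD and 6.36 for PTGS1, while the other 6 read 4.01 to 6.57 for CYP4F3 and 4.01 to 4.46 for HPGD. Without that array and HaCaT-PIK3CA afatinib replicate 1, over the other 3 lines, CYP4F3 changed by 0.00 (adjusted p = 0.99), HPGD by 0.09 (adjusted p = 0.78) and PTGS1 by -0.12 (adjusted p = 0.46), and PTGES was the 1 enzyme of 8 still called.

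**Figure D4:**
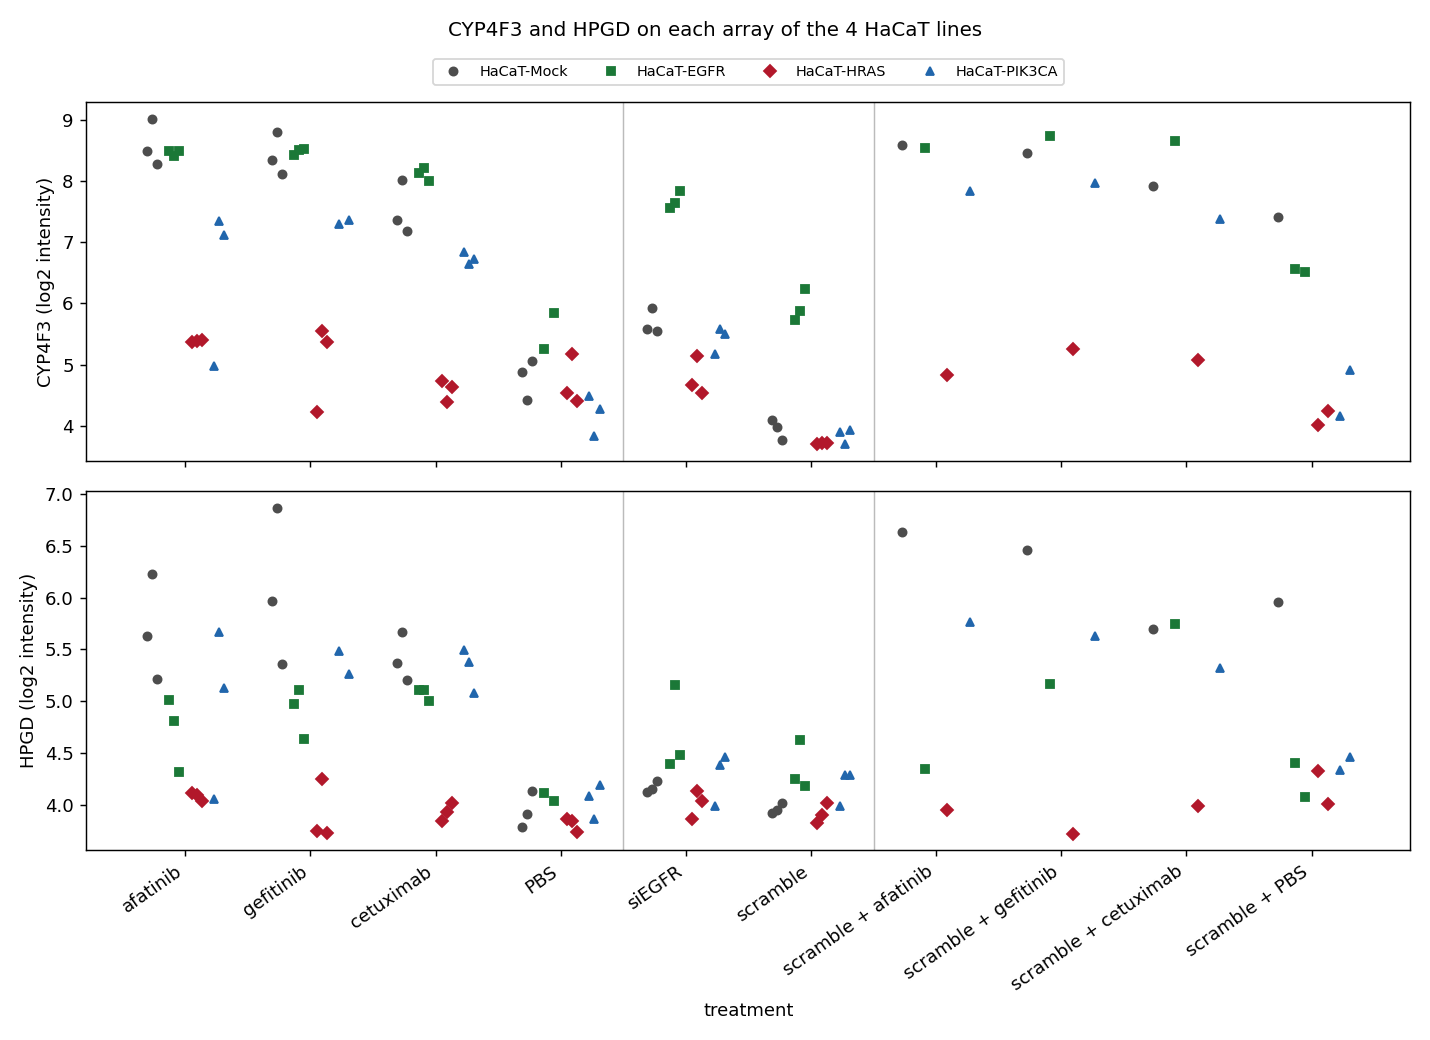
CYP4F3 (upper panel) and HPGD (lower panel) in log2 intensity on each array of the 4 HaCaT lines, by treatment, with marker shape and colour for the line. In HaCaT-HRAS CYP4F3 stays at or below 5.55 in all treatments, and the only HaCaT-Mock array with scramble siRNA and PBS reads 7.41 for CYP4F3.

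Without any inhibitor, the constructs themselves changed few of the enzymes. Under PBS 2 of 8 enzymes differed between HaCaT-HRAS and HaCaT-Mock, against 16.1% of all genes. PTGS2 read 4.31, 4.56 and 4.76 in HaCaT-HRAS, against 3.63, 3.76 and 3.86 in HaCaT-Mock, with no overlap and a rise of 0.84 (SE 0.150, adjusted p = 1.7e-05). The second PTGS2 probe set gave 0.27 (SE 0.0929). PLA2G4A read 6.23, 6.66 and 6.71 in HaCaT-HRAS, against 5.497, 5.59 and 5.77 in HaCaT-Mock, a rise of 1.10 (SE 0.153, adjusted p = 1.2e-07). Thus the phospholipase and the inducible cyclooxygenase, whose genes lie on chromosome 1, were both higher in the HRAS line, while PTGS1 (-0.17, SE 0.118) and PTGES (0.01, SE 0.125) did not pass.

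HaCaT-EGFR differed from HaCaT-Mock under PBS for 1 of 8 enzymes, against 0.698% of all genes. This was PTGES, with 6.58 and 6.61 in HaCaT-EGFR, against 7.12, 7.18 and 8.32 in HaCaT-Mock, a change of -0.77 (SE 0.138, adjusted p = 0.00074). In a fit of these 2 groups alone it was -0.55 (adjusted p = 0.16). CYP4F3 changed by 0.93 (SE 0.324, adjusted p = 0.24). The CYP4F3 difference passed at nearly the same size with array weights (0.88, adjusted p = 0.0012), without the 3 arrays named for PLA2G4A above (0.92, adjusted p = 0.0018) and without HaCaT-PIK3CA afatinib replicate 1 and the HaCaT-Mock array with scramble siRNA and PBS (0.92, adjusted p = 0.017). HaCaT-PIK3CA differed for none of the 8, against 0.162% of all genes (limma, with an unadjusted p under 0.05 for 2 of 8), and its largest changes were PLA2G4A (0.43, SE 0.153) and CYP4F3 (-0.43, SE 0.292). The PLA2G4A difference passed without the 3 arrays named for it above (0.44, adjusted p = 0.021) and with array weights (0.42, adjusted p = 0.0087).

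In the head and neck carcinoma lines SCC1, SCC25 and FaDu, PTGS2, PLA2G4A and PTGES were higher than in HaCaT-Mock under PBS, while PTGS1 was higher in SCC25 and lower in SCC1. The FaDu array tested was of batch M and the HaCaT-Mock PBS arrays were of batches J and E. The FaDu differences thus depend on batch shifts estimated from other groups. PTGS2 read 6.44 and 7.12 in SCC1, 5.83 and 6.61 in SCC25 and 4.34 in FaDu, against 3.63 to 3.86 in HaCaT-Mock. The log2 difference was 3.13 (SE 0.175) for SCC1, 2.57 (SE 0.175) for SCC25 and 0.84 (SE 0.223) for FaDu. The FaDu difference was lost without the batch term (0.59, adjusted p = 0.11) and with the PTGS2 probe set that the rule of the study picks (0.32, adjusted p = 0.071). PLA2G4A read 6.54 and 7.04 in SCC1, 7.76 and 8.33 in SCC25 and 6.38 in FaDu, against 5.497 to 5.77 in HaCaT-Mock. All 5 carcinoma arrays were thus above the HaCaT-Mock arrays for these enzymes, and the differences for PLA2G4A were 1.44 (SE 0.168), 2.70 (SE 0.168) and 1.31 (SE 0.214) for SCC1, SCC25 and FaDu. Without the batch term the FaDu difference for PLA2G4A was 0.76 (adjusted p = 0.16).

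PTGES read 8.30 and 8.33 in SCC1, 9.78 and 9.89 in SCC25 and 9.63 in FaDu, against 7.12, 7.18 and 8.32 in HaCaT-Mock. The difference was 0.96 (SE 0.137) for SCC1, whose arrays overlapped the HaCaT-Mock array of batch E, 2.48 (SE 0.137) for SCC25 and 2.28 (SE 0.175) for FaDu. PTGS1 read 9.46 and 9.56 in SCC25 and 6.12 and 6.42 in SCC1, against 6.75 to 7.48 in HaCaT-Mock. It was 2.24 (SE 0.130, 4.73-fold) higher in SCC25 and changed by -1.005 (SE 0.130) in SCC1. Neither PTGS1 array of 1 line came near those of the other.

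Of the breakdown enzymes, HPGD was higher in SCC25, with 5.46 and 5.83, against 3.79 to 4.14 in HaCaT-Mock (1.87, SE 0.262, adjusted p = 1.6e-08). In FaDu HPGD read 4.44, above the HaCaT-Mock arrays (0.71, SE 0.333, adjusted p = 0.096), and passed with array weights (0.77, adjusted p = 0.016) and without the 3 arrays named for PLA2G4A above (0.74, adjusted p = 0.032). CYP4F3 was lower in SCC1, with 3.13 and 3.33, against 4.42 to 5.05 (-1.41, SE 0.321, adjusted p = 0.00024). CYP4F3 in FaDu (5.36, a difference of 0.71, SE 0.409, adjusted p = 0.2) passed with array weights (adjusted p = 0.015) and without the same 3 arrays (0.77, adjusted p = 0.0067). The difference of these changes between carcinoma lines was not tested. ALOX12B was 0.62 (SE 0.140, adjusted p = 0.00019) higher in SCC25, and ALOX15B passed in none of the 3 lines. In all, SCC1 differed for 5 of 8 enzymes (37.4% of all genes), SCC25 for 6 (42.2%) and FaDu for 3 (34.6%), the last with 1 array that was assumed to vary like the other groups.

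The choice of HaCaT reference mattered for the breakdown enzymes. The single array of parental HaCaT cells read 7.86 for CYP4F3, 5.64 for HPGD and 5.69 for ALOX12B, against 4.42 to 5.05, 3.79 to 4.14 and 4.37 to 4.46 in HaCaT-Mock under PBS, and its DUSP6 of 8.29 lay below the 9.49 to 10.18 of HaCaT-Mock. Against parental cells PTGS2 and PLA2G4A were still higher in each carcinoma line, but the difference was -0.05 (adjusted p = 0.94) for HPGD in SCC25, -3.12 for CYP4F3 in SCC25 and -2.50 for CYP4F3 in FaDu. For PTGES in SCC1 it was -0.33 (adjusted p = 0.17).

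**Figure D5:**
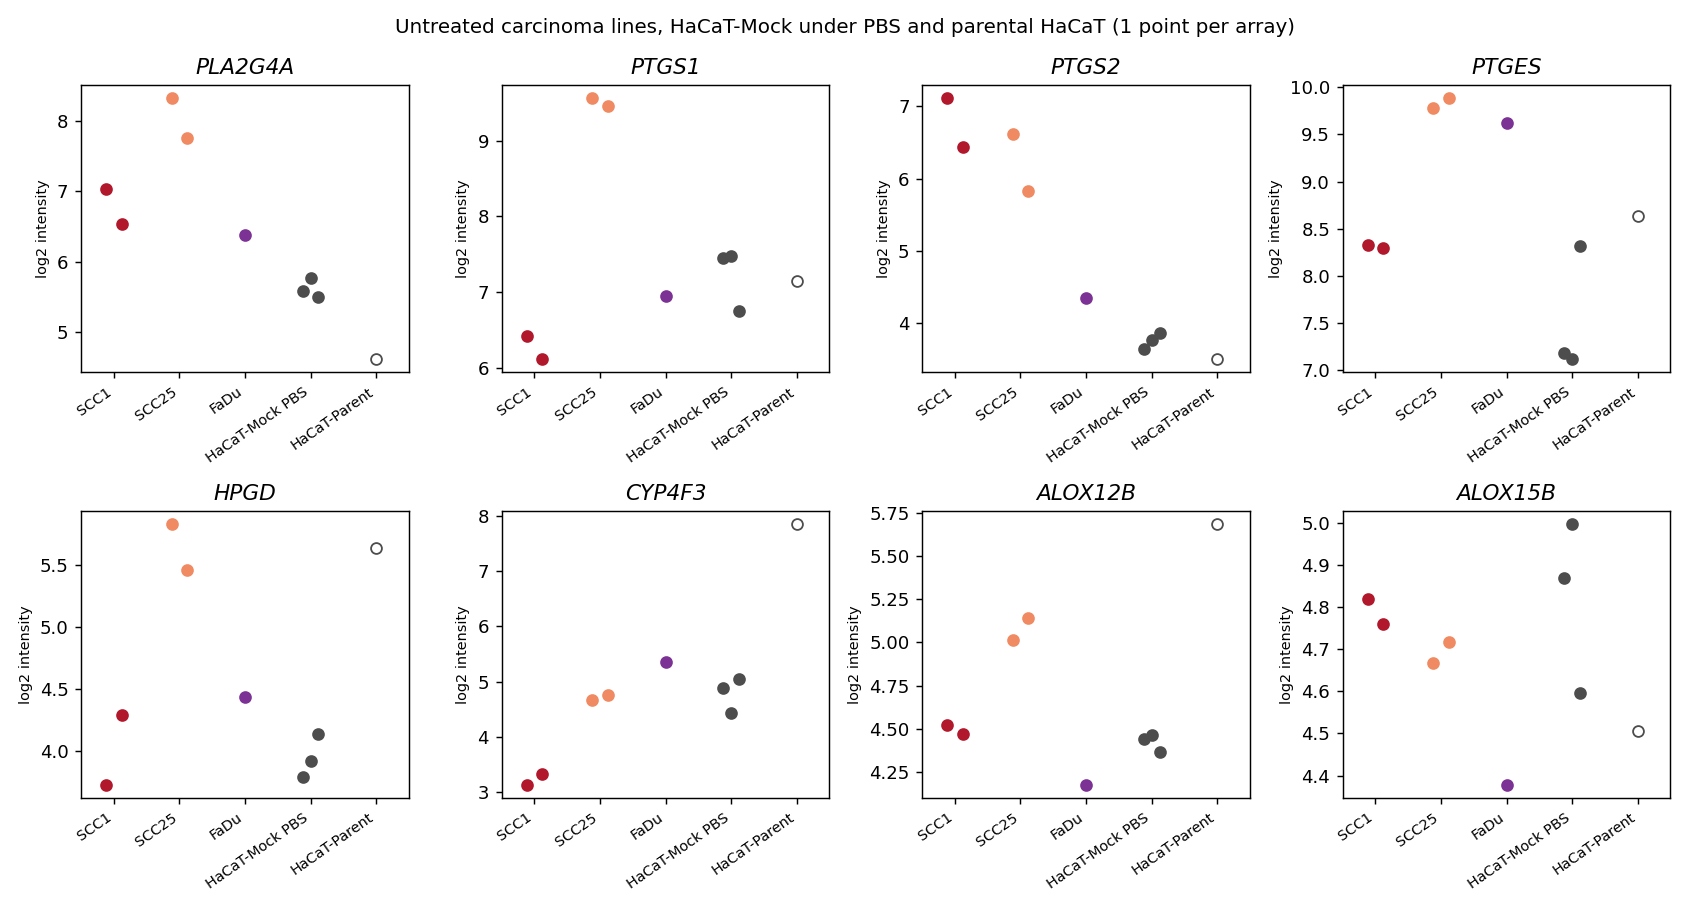
Log2 intensity of each enzyme on every array of untreated SCC1, SCC25 and FaDu, of HaCaT-Mock under PBS and of parental HaCaT (open points). The SCC1 and SCC25 arrays lie at 5.83 or above for PTGS2, with HaCaT-Mock below 3.87, and the parental array stands above HaCaT-Mock for CYP4F3, HPGD and ALOX12B.

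Genes around the 8 enzymes were counted in 6 lists. Under the inhibitors over the 4 lines, where 39.2% of all genes were called, 4 of 9 measured genes of eicosanoid breakdown rose and 1 fell. CYP4F12 (0.90), EPHX2, the soluble epoxide hydrolase (0.71), and CYP4F2 (0.67) rose most, and the prostaglandin transporter SLCO2A1 fell by 0.18. In HaCaT-HRAS only CYP4F12 of these passed (0.42, adjusted p = 0.015). CYP4F2 and CYP4F12 share much sequence with CYP4F3, and how far their rises are separate from its rise was not tested. Of 13 measured eicosanoid receptors, PTGER2 and PTGER4, receptors of prostaglandin E2, fell by 0.64 and 0.50, PTGIR fell by 0.11 and the leukotriene B4 receptor LTB4R rose by 0.19. PTGER2 was the 1 receptor that passed in HaCaT-HRAS (-0.40, adjusted p = 0.0008).

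Of 9 prostanoid synthases 2 fell, PTGES3 by 0.21 and PTGES2 by 0.14, both alternative prostaglandin E synthases. Of 8 measured phospholipases A2, PLA2G2A (0.27) and PLA2G6 (0.14) rose and PLA2G12A fell by 0.27. Of 7 lipoxygenase and leukotriene genes ALOX5AP (0.15) and LTC4S (0.14) rose, and of 9 barrier lipid genes ABCA12 (0.25) and UGCG (0.21) rose and ELOVL4 fell by 0.17. Median changes of the 6 lists lay between -0.07 and 0.11, with -0.01 over all genes.

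With siEGFR over the 4 lines, against 28.4% of all genes called, CYP4F12 rose by 0.25 and PTGR1, a prostaglandin reductase, by 0.18, with no fall among the 9 breakdown genes. PTGER2 fell by 0.25 and PTGER4 rose by 0.23. ELOVL4, which elongates very long fatty acids of the barrier, rose by 1.53 with siEGFR. CBR1, a carbonyl reductase that acts on prostaglandin E2, fell by 0.96, and AKR1C3, a prostaglandin F synthase, rose by 0.73. In the carcinoma lines the receptor PTGER2 was the gene of these lists with the largest fall in SCC1 (-3.98), SCC25 (-3.55) and FaDu (-3.64).

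Over the 40 fitted HaCaT group values, the enzymes differed in what ran with them. Similar genes were sought only in the brighter part of the arrays. Genes averaging under 6.10 on the construct arrays, the mean of the middle gene, could not be named. CYP4F3 was most like HSPB1 (Pearson r 0.973), TNFSF10 (0.972) and AHNAK2 (0.968). PTGS2 was most like LCP1 (0.961), PLA2G4A like PPIB (0.932) and HPGD like SCGB1A1 (0.921). For PTGS1, PTGES, ALOX15B and ALOX12B the closest genes were ABHD6 (0.831), INPP1 (0.815), REEP2 (0.634) and IGLV1-44 (0.552). Among the enzymes themselves CYP4F3 ran with HPGD (r 0.805) and against PLA2G4A (r -0.827). These correlations describe 40 groups that share lines, treatments and batches.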

How the data were processed

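RNA was measured on Affymetrix Human Genome U133 Plus 2.0 arrays, and the deposited values were log2 intensities per probe set, 1 column per array, from 2.65 to 14.5. The study's methods describe frozen robust multiarray normalization and a surrogate-variable correction of batches by the authors, and the submitters' processing notes name affy. The sources used here do not say which of these steps lie behind the deposited log2 values, in which batch differences remained. The platform annotation gave a single symbol for 41097 of 54675 probe sets, several for 1801 and no entry for 11777. Each of the 10523 genes with several probe sets was read from its brightest one on average over the 89 construct arrays.

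limma 3.58.1 in R 4.3.3 (with data.table, version 1.17.8) fitted 40 group means and the batch letter from the sample titles, with 47 residual degrees of freedom. p-values were moderated and adjusted by Benjamini-Hochberg over 19775 genes in each of 24 comparisons, and a gene was called at an adjusted p under 0.05. The carcinoma lines were tested in a fit of 95 arrays, which left out the FaDu array of batch P. Averages over lines weighted the lines equally. The number of arrays limits the precision.

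The 8 enzymes and the wider lists were chosen with earlier results of these data known. Named genes were the enzymes, EGFR and DUSP6 as checks, up to 3 rises and 3 falls per list, and similar genes. The similar genes were those most like each enzyme over the 40 groups, among genes averaging at least 6.10 on the construct arrays. PLA2G4B, PLA2G4E, PLA2G10, DPEP1 and LTB4R2 of these lists had no named probe set here. The 13 other settings tried covered the batch term, the arrays and groups fitted, the probe set rule of the study (the highest deviation between conditions relative to that between replicates), array weights, quantile normalization, a filter at a mean of 5, the variance prior, the replicate block, the HaCaT reference and single arrays left out. Sequences were taken with Python 3.11.15 from RefSeq on GRCh38.p14, whose promoter table held 7 of the 8 enzymes, all but ALOX15B.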

Additional observations from a re-analysis of the deposited data

Results flagged for a closer look

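The inhibitor response of 4 enzymes differed between HaCaT-HRAS and HaCaT-Mock in a test of the difference itself. The difference of log2 changes, HaCaT-HRAS minus HaCaT-Mock, was -3.08 for CYP4F3, -1.66 for HPGD, -0.64 for PTGES and 0.52 for PTGS1. PTGER2, the prostaglandin E2 receptor that also fell in HaCaT-HRAS, had a difference of 0.38 (adjusted p = 0.017).

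The FaDu array under PBS was the 1 array of batch P and entered no comparison. It read 5.82 for PTGS2 and 11.2 for PTGES, above the highest HaCaT-Mock PBS array (3.86 and 8.32), and the untreated FaDu array of batch M read 4.34 and 9.63. Treatment and batch cannot be told apart for this FaDu array. Of all arrays, only HaCaT-HRAS gefitinib replicate 1 had a larger ACTB 3′ minus 5′ difference than this FaDu array. Whether that difference bears on its PTGS2 and PTGES values was not tested. No group held 4 or more arrays, so no array was tested as an outlier within its group.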

How the results depend on the processing

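Changes of the enzymes mostly kept their direction and their side of the threshold, in 1025 of 1101 alternative values, with 26 calls lost, 42 gained and 8 directions turned. Precision was limited by how few arrays each group held. The estimation of array weights stopped before full convergence. All 8 turned directions came from parental HaCaT as the reference, a single array. They were PTGES -0.33, HPGD -1.69 and ALOX12B -1.17 in SCC1, HPGD -0.050, CYP4F3 -3.12 and ALOX12B -0.59 in SCC25, and HPGD -1.20 and CYP4F3 -2.50 in FaDu.

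Counts of enzymes called moved as follows, and the cause was not tested. For the inhibitors in HaCaT-HRAS (1 called) the count was 0 without the batch term, on batch J arrays only, in the compared groups only and without the 3 arrays in doubt (HaCaT-HRAS gefitinib replicates 1 and 2, HaCaT-PIK3CA afatinib replicate 1), and 2, with PTGS1 added, with the probe set rule of the study. Gefitinib replicate 2 did not stand apart by DUSP6 (10.33, against 10.38 on replicate 3) or by its ACTB difference (1.45). The HaCaT-Mock array with scramble siRNA and PBS was not among these 3. For the difference of responses, HaCaT-EGFR minus HaCaT-Mock (0 called), it was 1 in the compared groups only, without the arrays in doubt and with array weights, and for HaCaT-PIK3CA minus HaCaT-Mock (0 called) 1 with array weights. For HaCaT-EGFR against HaCaT-Mock under PBS (1 called) it was 0 in the compared groups only, 3 with array weights, 2 without the arrays in doubt and 2 without the 2 arrays unlike their labels, an alternative chosen after seeing the data. For HaCaT-HRAS against HaCaT-Mock (2 called) the filter at a mean of 5, which removed PTGS2, left 1, and for HaCaT-PIK3CA (0 called) it was 1 without the arrays in doubt and 2 with array weights. For siEGFR it was 1 without the batch term in HaCaT-Mock (2 called), 0 without the batch term and on batch J arrays only in HaCaT-HRAS (1 called), and 2 in the compared groups only and with array weights in HaCaT-EGFR and HaCaT-PIK3CA (1 called each). For the inhibitors with scramble siRNA (3 called) it was 5 in the compared groups only and without the 2 unlike arrays, and for scramble siRNA with PBS against PBS (4 called) it was 1 without them. For SCC25 (6 called) the filter at a mean of 5 left 3 of the fewer enzymes tested. For FaDu (3 called) it was 1 without the batch term, 7 with array weights, 5 without the arrays in doubt, 5 without the 2 unlike arrays and 6 against parental HaCaT.

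Leaving out single arrays gave 0 to 2 enzymes for the inhibitors in HaCaT-HRAS, 1 to 2 for siEGFR in HaCaT-Mock, 0 to 1 for siEGFR in HaCaT-HRAS and 1 to 4 for scramble siRNA with PBS against PBS, and every other count stayed within 1.5 times its value. The replicate block changed none of 102 enzyme calls, so that CYP4F3 in HaCaT-Mock stayed at 3.38. Deviations of same-numbered arrays from their group means correlated between -0.21 and 0.22 over 190 pairs of groups (median 0.00). The titles of batch M arrays give no replicate number, so the numbers used for them did not come from the titles. With so few arrays per group these correlations cannot exclude that some arrays were paired, and the main fit used no pairing by number.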
